A study of Mus musculus with 4 samples.

Results

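A set of 10 extracellular matrix genes were followed in mouse embryos labelled as null for nucleoredoxin, a thioredoxin-related protein encoded by Nxn. They are the glycoproteins Fn1, Tnc, Postn, Sparc, Fbn1 and Fbn2, the elastic fibre core protein Eln and the small leucine-rich proteoglycans Dcn, Bgn and Lum. Every probe that carries 1 of these 10 gene names was taken, which gave 18 of 41174 gene probes on the array. Of the 18, 14 were tested, since on both arrays of some stage their signal was well above background for either genotype or both. The other 4, which were 2 of Tnc, 1 of Dcn and 1 of Bgn, were too dim, and each gene kept at least 1 tested probe. The dim probes had mean log2 ratios of Nxn-null over wild type from -0.09 to 0.16 at E9.5 and from -0.06 to 0.01 at the later stage.

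Per the labels, RNA came from embryos of NRX -/- mice (called Nxn-null here, and KD in the sample titles) and of NRX +/+ mice (wild type), both C57BL/6J and untreated, at E9.5 and E11.5, where E stands for embryonic day. On each of 4 arrays, Nxn-null and wild-type RNA of 1 stage were hybridised together in different dyes. Nxn-null RNA was labelled with Cy5 on replicate 1 of each stage and with Cy3 on replicate 2. Nothing in the labels states that these dye-swapped arrays used different extracts, so a stage counts as 1 replicate and p-values measure only array spread, which may be technical. Embryo numbers, embryo sex and the nature of the Nxn allele are not in the labels. Xist, a transcript made in female cells, had E11.5 ratios of Nxn-null over wild type of 6.07 and 5.59 (log2). A difference in embryo sex therefore cannot be told apart from genotype at that stage.

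The extracellular matrix of an embryo carries migrating and differentiating cells and stores growth factors. Fibronectin forms the early fibrillar matrix to which integrins bind. Fibrillins build microfibrils on which elastin is laid down to form elastic fibres. Matricellular proteins such as tenascin C, periostin and SPARC alter how cells adhere, and decorin, biglycan and lumican bind collagen fibrils through leucine-rich repeats.

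Promoters of members are shown because nearly all of the genes changed in the same direction between the stages. RefSeq windows on build GRCm38.p6 matched 5 of the 10 genes, and the 250 bases before a start are printed for 4 of them, 5′ to 3′ along the gene. The printed windows are chr11:55420081-55420330 (minus strand) for Sparc, chr3:54360857-54361106 (plus strand) for Postn, chr4:64047016-64047265 (minus strand) for Tnc and chrX:73483351-73483600 (plus strand) for Bgn. Postn and Tnc have another start in the table that is not printed. Capitals mark the TATA box word TATAAA, and also any of 4 words that TCF/LEF factors of the Wnt/beta-catenin pathway recognise, each on either strand. These 4 are CTTTGAA, the word CTTTGAT, the word CTTTGTA and the word CTTTGTT.
Sparc: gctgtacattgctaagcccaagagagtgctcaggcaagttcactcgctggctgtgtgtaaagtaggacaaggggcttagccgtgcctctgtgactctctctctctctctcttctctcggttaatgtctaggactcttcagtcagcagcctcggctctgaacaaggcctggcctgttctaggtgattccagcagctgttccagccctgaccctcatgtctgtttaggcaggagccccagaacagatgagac
Postn: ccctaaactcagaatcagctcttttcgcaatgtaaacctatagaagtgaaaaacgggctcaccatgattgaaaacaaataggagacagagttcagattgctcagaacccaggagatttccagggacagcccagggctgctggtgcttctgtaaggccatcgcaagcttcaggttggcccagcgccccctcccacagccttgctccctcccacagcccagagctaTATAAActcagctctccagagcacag
Tnc: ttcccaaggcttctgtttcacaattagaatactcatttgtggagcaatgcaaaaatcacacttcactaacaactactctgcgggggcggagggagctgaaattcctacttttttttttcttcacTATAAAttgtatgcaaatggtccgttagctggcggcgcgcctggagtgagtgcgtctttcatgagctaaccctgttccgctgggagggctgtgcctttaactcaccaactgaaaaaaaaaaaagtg
Bgn: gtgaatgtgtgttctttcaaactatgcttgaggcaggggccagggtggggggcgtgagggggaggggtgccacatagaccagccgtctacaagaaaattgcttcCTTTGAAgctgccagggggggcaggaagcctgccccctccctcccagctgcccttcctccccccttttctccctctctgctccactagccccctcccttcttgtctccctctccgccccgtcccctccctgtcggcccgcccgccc
The Postn window holds TATAAA 26 bases before the start, the Tnc window holds it 126 bases before, and the Bgn window holds CTTTGAA 146 bases before. Neither word is in the printed Sparc window. The Postn window that is not printed lacks TATAAA, and the Tnc window that is not printed holds it 205 bases before its start. The Fbn1 window, also not printed, holds none of these words. Of the 7 windows of members, 3 held TATAAA, where the Tnc windows overlap and share theirs, and 1 held a TCF/LEF word. Among 32851 RefSeq windows of this length, 12.4% held TATAAA and 14.8% held 1 of the TCF/LEF words, so such matches are common and only describe the sequence.

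Nxn itself, which checks the labels, was at less than its wild-type level on all 4 arrays. Both of its probes stayed well above background in every Nxn-null channel, and the labels do not say whether the disrupted stretch of the gene holds either. The probe A_52_P57013 had log2 ratios, always given as Nxn-null over wild type, of -1.04 and -0.93 (E9.5) and of -1.24 and -1.42 on the later pair. The other probe, A_51_P165870, had -0.77 and -0.85, followed by -1.18 and -1.13. Across probes, the ratios of a dye-swapped pair correlated at 0.42 (E9.5) and at 0.24 for the later stage. Between 48.1% and 70.3% of gene probes were well above background in each channel, and precision is limited by how few arrays there are.

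The genotypes also differed in markers of other tissues. All 6 markers of yolk sac endoderm were lower in Nxn-null RNA at E9.5, with a summed level of 10952 to 14472 against 126411 to 129383 in wild type. All 6 heart muscle markers were lower at E9.5, with sums of 26734 to 31798 in Nxn-null and 102601 to 103535 in wild-type RNA. All 5 neuron markers were higher at E9.5, with sums of 18505 to 18519 in Nxn-null against 12624 to 13873 in wild-type RNA. Of the 7 mesenchyme markers, 1 was higher and 1 lower at E9.5, and the sums overlapped, at 25844 to 27020 in Nxn-null and 25864 to 26448 in wild-type RNA. All 5 primitive red cell markers were lower at both stages, with E9.5 sums of 217300 to 254559 in Nxn-null against 391080 to 449230 in wild-type RNA. Of 5 decidua markers, 1 was higher and 1 lower at E9.5, with sums of 2104 to 2326 in Nxn-null against 1551 to 1700 in wild-type RNA. The higher one, the decidual prolactin Prl8a2, had a ratio of 2.64. Of 2 tested trophoblast markers, 1 was higher (Prl3d1, 1.06) and 1 lower (Hand1, -0.22) at E9.5. The trophoblast sums were 1387 to 1655 in Nxn-null against 1110 to 1240 in wild-type RNA. By E11.5, 1 of the 6 yolk sac markers was lower and 2 of the 6 heart markers were higher. Cell numbers, RNA per cell and the amount of yolk sac, decidua or placenta taken along with the embryos cannot be told apart in these ratios. The part of these markers in the ratios of the matrix genes was not tested.

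Genotype ratios of the matrix genes were small at both stages. Across the 14 tested probes they ran from -0.27 to 0.23 at E9.5 and from -0.37 to 0.75 at E11.5, with medians of -0.04 and -0.07. Over all 24993 tested probes the medians were 0.0041 and 0.0052. No probe of the 10 genes reached a 2-fold change at either stage, against 0.696% of all probes at E9.5 and 0.208% at E11.5. Channel levels of the genotypes did not overlap for 6 of the 14 probes at E9.5, against 41.3% of all probes. At E11.5 this held for 9 of the 14, against 31.3%, among them Bgn, Eln, Fbn2 and the Fbn1 probe A_52_P224801.

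**Figure D1:**
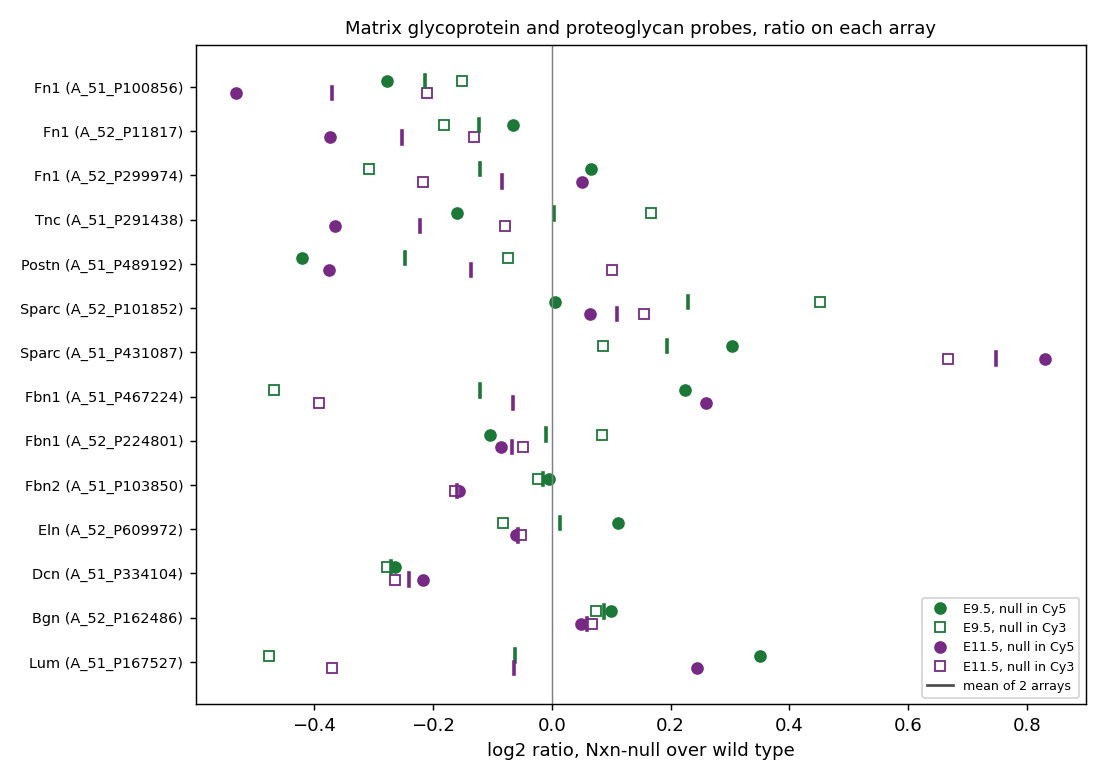
Log2 ratio of Nxn-null over wild type for the 14 tested probes on each of the 4 arrays. Green marks E9.5 and purple E11.5, filled circles are arrays with Nxn-null RNA in Cy5, open squares are arrays with it in Cy3, and short bars are the mean of the 2 arrays of a stage. Dcn and the brightest Fn1 probe lie left of 0 on all 4 arrays, both Sparc probes lie right of 0, and the open and filled symbols of Lum and of Fbn1 A_51_P467224 lie on opposite sides of 0.

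At E9.5, 5 of the 14 probes differed between the genotypes beyond array spread, where 22.3% of all probes did (limma adjusted p under 0.05). Of these, 2 were higher, against 8.8% of all probes, and 3 lower, against 13.5%. Dcn, Postn and Fn1 were lower, and both Sparc probes were higher. Later, at E11.5, 5 of the 14 differed, against 8.48% of all probes. Of these, 1 was higher, against 3.16%, and 4 lower, against 5.31%. Dcn, Tnc and 2 Fn1 probes were lower, and 1 Sparc probe was higher. These calls rest on the dye term of the fit, since without it 0 of 14 probes were called at either stage. With any 1 array left out, which also removes the dye term, 0 were called at E9.5 and 0 to 1 at E11.5.

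Fibronectin, the adhesive glycoprotein of the early matrix, has 3 probes, and the brightest, A_51_P100856, is spotted 10 times on each array. Its normalised log2 level was 10.48 and 10.44 in Nxn-null and 10.75 and 10.59 in wild-type RNA at E9.5. At E11.5 it was 10.87 and 10.64 in Nxn-null against 11.41 and 10.85 in wild-type RNA. The genotypes did not overlap at E9.5, whereas at E11.5 the higher Nxn-null value lay just above the lower wild-type one from another array. On every array, though, the Nxn-null channel was the lower of the pair.

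The log2 ratios of that Fn1 probe were -0.28 and -0.15 at E9.5, a mean of -0.21 ± 0.09 (SD, n = 2 arrays), or 86.2% of wild type. They were -0.53 and -0.21 at E11.5, a mean of -0.37 ± 0.23 (SD, n = 2 arrays), or 77.4% of wild type. The limma adjusted p was 0.0229 for the earlier stage and 6.15e-04 for the later. The 10 spots agreed closely within an array, with an SD of 0.0288 to 0.0740, so the arrays differed by more than the spots did. With median centring in place of loess the E11.5 mean of this probe was -0.19.

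The second Fn1 probe, A_52_P11817, had E9.5 ratios of -0.06 and -0.18, and its E11.5 ratios were -0.37 and -0.13. It was called at E11.5 (mean -0.25, limma adjusted p = 0.0264) and not at E9.5 (mean -0.12, limma adjusted p = 0.229). The third, A_52_P299974, lay near background and was called at neither stage, with E9.5 ratios of 0.07 and -0.31, while those of E11.5 were 0.05 and -0.22. The stage difference of the ratio was not called for any of the 3 Fn1 probes.

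Tenascin C, a matricellular glycoprotein, had log2 levels of 8.39 and 8.55 in Nxn-null and 8.55 and 8.38 in wild-type RNA at E9.5, which overlap. At E11.5 the levels were 8.51 and 8.78 in Nxn-null against 8.87 and 8.86 in wild-type RNA, with no overlap. The Tnc ratio at E9.5 was -0.16 and 0.17. At E11.5 it was -0.37 and -0.08, a mean of -0.22 ± 0.20 (SD, n = 2 arrays), or 85.7% of wild type (limma adjusted p = 0.0317). The difference between the stages was -0.23 and did not pass the test (limma adjusted p = 0.119).

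Periostin, a matricellular protein of collagen-rich tissue and heart valves, had log2 levels of 11.94 and 12.09 in Nxn-null and 12.36 and 12.16 in wild-type RNA at E9.5. The genotypes did not overlap. The Postn ratios were -0.42 and -0.07, a mean of -0.25 ± 0.25 (SD, n = 2 arrays), or 84.2% of wild type (limma adjusted p = 0.00813). At E11.5 the ratios were -0.38 and 0.10, so the arrays took opposite signs, and the mean of -0.14 was not called (limma adjusted p = 0.248).

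SPARC, a calcium-binding matricellular protein that binds collagen, is measured by 2 bright probes that gave different ratios at E11.5. The probe A_51_P431087 had log2 levels of 13.54 and 13.51 in Nxn-null against 12.71 and 12.84 in wild-type RNA at that stage. The genotypes lay far apart compared with the spread between arrays. The E11.5 ratio was 0.83 and 0.67, a mean of 0.75 ± 0.12 (SD, n = 2 arrays), or 1.68-fold (limma adjusted p = 7.02e-08). Without E11.5 replicate 1 the adjusted p was 0.833, and without E11.5 replicate 2 it was 0.237, in fits that also lack the dye term. With all arrays but no dye term it was 0.0806, and with the Feature Extraction ratios 0.0839.

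At E9.5 the same Sparc probe had log2 levels of 12.64 and 12.49 in Nxn-null and 12.34 and 12.40 in wild-type RNA. Its ratios of 0.30 and 0.09 averaged 0.19 (limma adjusted p = 0.0326). The ratio was larger at E11.5 by 0.55 ± 0.09 (SE, 4 arrays; limma adjusted p = 2.03e-04), a call that was lost with Feature Extraction ratios, with median centring, without the dye term and with any array left out. That was the only 1 of the 14 probes whose ratio differed between the stages by this test, against 11.7% of all probes.

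The brighter Sparc probe, A_52_P101852, had log2 levels of 13.62 and 13.73 in Nxn-null and 13.56 and 13.57 in wild-type RNA at E11.5. Its ratios were 0.06 and 0.16, a mean of 0.11 that was not called (limma adjusted p = 0.438). On the same arrays the probes differed by 0.77 and 0.51 in their E11.5 log2 ratio. At E9.5 the brighter probe had ratios of 0.01 and 0.45 and a mean of 0.23 (limma adjusted p = 0.0224). Both probes had a ratio above 0 on all 4 arrays, so they share a direction at E11.5 but not a size. Which exon or transcript each probe reads is unknown here. Of 5 markers of parietal endoderm, a tissue that secretes SPARC, 1 was higher (Lama1) and 2 lower (Lamb1 and Sox7) at E9.5. Their sums were 6129 to 6433 in Nxn-null and 6296 to 6600 in wild-type RNA at that stage. By E11.5, 0 of the 5 were called, with sums of 6731 to 7241 in Nxn-null and 7023 to 7576 in wild-type RNA, and their part in the Sparc ratios was not tested.

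**Figure D2:**
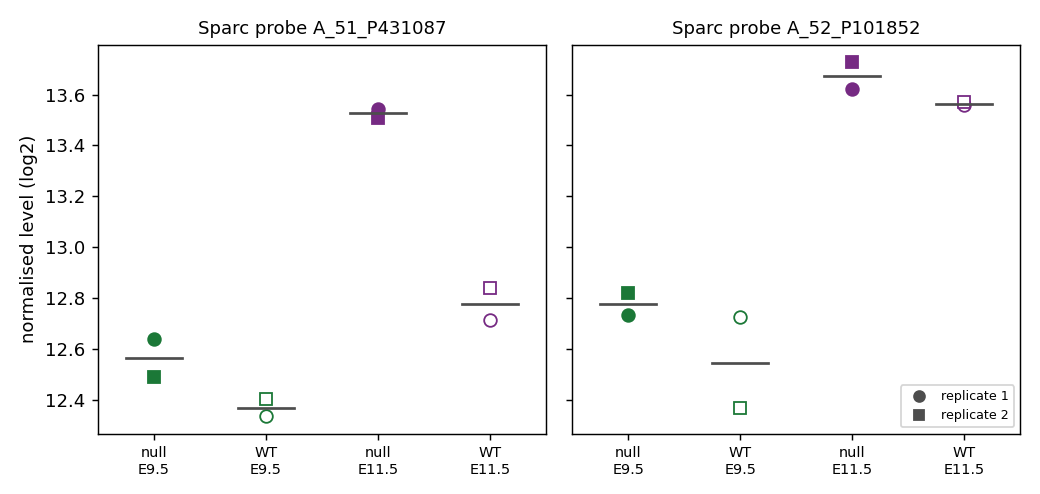
Normalised log2 level of the 2 Sparc probes in each channel, with Nxn-null (filled) left of wild type (open) at E9.5 (green) and E11.5 (purple). Circles are replicate 1, squares are replicate 2 and bars are means. At E11.5 the left probe separates Nxn-null (13.54 and 13.51) from wild type (12.71 and 12.84), and the right probe has both genotypes between 13.56 and 13.73.

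Fibrillins and elastin, the components of microfibrils and elastic fibres, showed no genotype call at either stage. Fbn2, the fibrillin most typical of embryonic tissue, had ratios of -0.16 and -0.16 at E11.5 (limma adjusted p = 0.150) and about 0 at E9.5 (mean -0.01). Eln, which encodes the elastic core protein, had E9.5 ratios of 0.11 and -0.08, followed by -0.06 and -0.05 for the later stage. The second Fbn1 probe, A_52_P224801, had a mean of -0.0096 for the earlier and -0.07 for the later stage.

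The brighter Fbn1 probe, A_51_P467224, changed sign with the dye. Its ratios were 0.23 and 0.26 on the arrays with Nxn-null RNA in Cy5, and -0.47 and -0.39 on those with Nxn-null RNA in Cy3. Lum behaved alike, at 0.35 and 0.24 in Cy5 and at -0.48 and -0.37 in Cy3. Opposite signs in the dye orientations at both stages were seen for 3 of the 14 probes, against 28.8% of all probes. The dye term was larger for these Lum and Fbn1 probes than for 98.5% and 98.1% of all probes. Their means over the dyes were -0.06 at both stages for Lum, and, for Fbn1, -0.12 for the earlier and -0.07 for the later stage, and none was called.

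Decorin, a proteoglycan that binds collagen fibrils and TGF-beta, had the most even genotype ratio of the called genes. Its log2 level was 10.50 and 10.61 in Nxn-null against 10.76 and 10.89 in wild-type RNA at E9.5, and 11.79 and 11.73 in Nxn-null against 12.002 and 11.997 in wild-type RNA by E11.5. The genotypes did not overlap at either stage, which also held for both Sparc probes and for the uncalled Bgn. The Dcn ratios were -0.26 and -0.28 at E9.5, or 82.9% of wild type, and those of E11.5 were -0.22 and -0.26, or 84.6% of wild type (limma adjusted p = 0.00368 and 0.0188). With median centring in place of loess the E11.5 mean was -0.09.

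Biglycan, the X-linked relative of decorin, had Bgn ratios of 0.10 and 0.07 (E9.5) and, for the later stage, of 0.05 and 0.07. They were above 0 on all 4 arrays but were not called (limma adjusted p = 0.361 and 0.692). Xist, the transcript that coats an inactive X chromosome, had ratios of 6.07 and 5.59 at E11.5, against -0.14 and -0.72 at E9.5, by its probe A_51_P145453. The transcript is made in female cells, the labels give no sex, and its part in the E11.5 ratios was not tested.

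Over both stages, 4 of the 14 probes were lower in Nxn-null RNA on all 4 arrays, against 10.6% of all probes. They were 2 Fn1 probes, Dcn and Fbn2. Fbn2 was barely below 0 at E9.5 (-0.0046 and -0.0232), and its E9.5 mean was 0.0078 with Feature Extraction ratios and 0.056 with median centring. A further 3, which were both Sparc probes and Bgn, were higher on all 4, against 7.67% of all probes. With each stage as 1 replicate, limma called 0 of the 14 probes and 0% of all probes. Unadjusted p-values were under 0.05 for 5 of the 14, and for 1883 of all 24993 probes. Treating the 4 arrays as separate measurements called 0 of the 14 and 70 of all probes. The Dcn mean over the stages was -0.26 ± 0.06 (SE, n = 2 stages; limma adjusted p = 0.499), and that of the brightest Fn1 probe was -0.29 ± 0.07 (limma adjusted p = 0.520).

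Between the stages, all 14 probes had a higher mean level at E11.5 than at E9.5, and 12 of them, from 9 of the 10 genes, rose past the test, against 19.5% of all probes that rose (42.4% changed in either direction). Their median change was 0.51 log2 units, against -0.04 over all probes. No array holds both stages, so levels were set across arrays, with the 2 genotypes as replicates. Array effects common to both channels do not enter the error, so these p-values are too small.

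**Figure D3:**
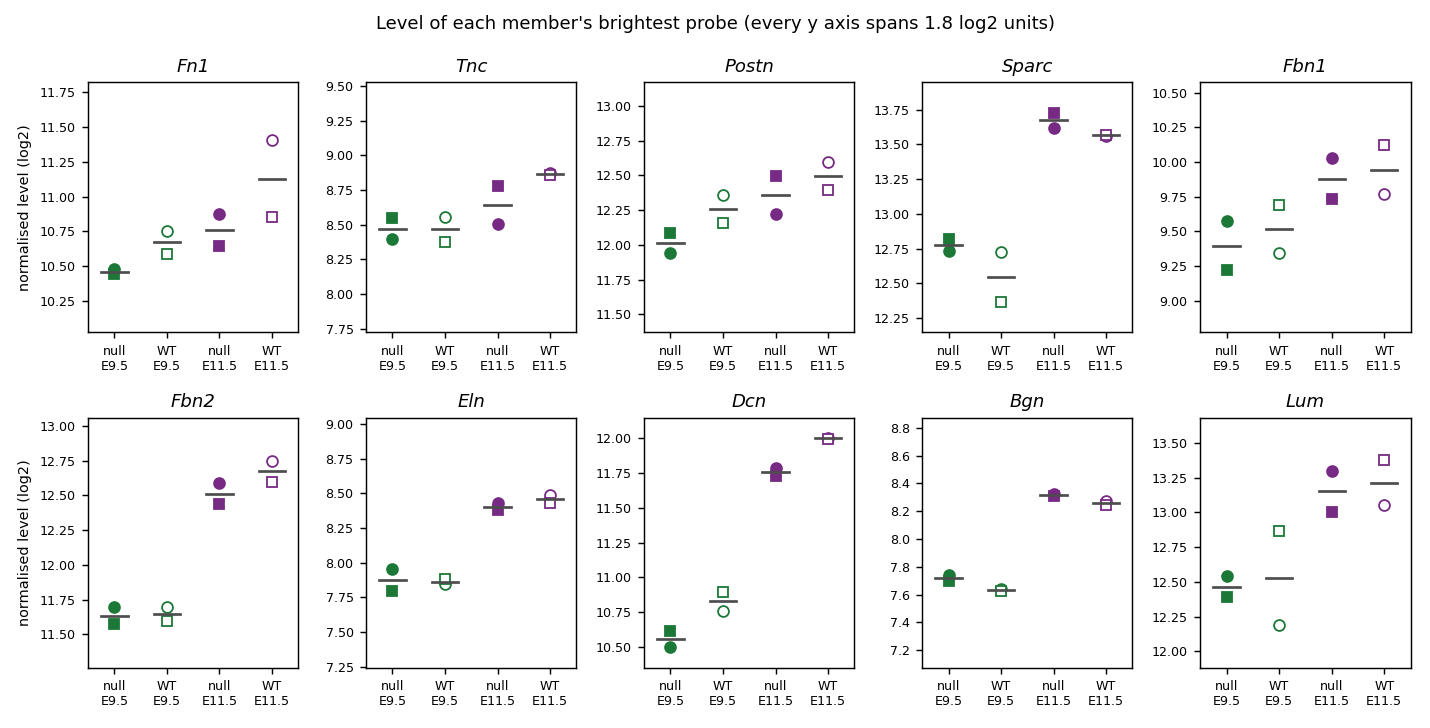
Normalised log2 level of each gene's brightest probe in Nxn-null (filled) and wild-type (open) RNA at E9.5 (green) and E11.5 (purple). Circles are replicate 1, squares are replicate 2, bars are means, and each axis spans the same range of log2 units at a height of its own. The E11.5 symbols of Dcn, Fbn2, Sparc, Eln, Bgn and Lum all lie above their E9.5 symbols in both genotypes.

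In the reported fit, Dcn rose most, by 1.20 log2 units in Nxn-null and 1.17 in wild-type RNA. Its mean was 1.19 ± 0.06 (SE, n = 2 genotypes), or 2.28-fold (limma adjusted p = 0.00534). In that fit it was the only probe of the 14 to reach 2-fold, against 2.22% of all probes that rose as far. With Feature Extraction processed signals, Bgn (1.35) and Eln (1.13) also passed 2-fold, and Bgn rose more than Dcn. In the reported fit the other proteoglycans rose less than Dcn. Lum was higher by 0.69 in each genotype (limma adjusted p = 0.00649), and Bgn by 0.60 in Nxn-null and 0.63 in wild-type RNA (limma adjusted p = 0.00724).

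Fbn2 rose by 0.88 in Nxn-null and 1.03 in wild-type RNA, a mean of 0.95 ± 0.07 (SE, n = 2 genotypes), or 1.94-fold (limma adjusted p = 0.00580). The brighter Sparc probe rose by 0.90 in Nxn-null and 1.02 in wild-type RNA, or 1.94-fold on average (limma adjusted p = 0.00570). The other Sparc probe rose by 0.96 in Nxn-null but by 0.41 in wild-type RNA (mean 0.68, limma adjusted p = 0.0312). Both Sparc probes thus gave a similar rise in Nxn-null RNA and different rises in wild-type RNA.

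Eln rose by 0.52 in Nxn-null and 0.59 in wild-type RNA (limma adjusted p = 0.00850). The brighter Fbn1 probe rose by 0.48 in Nxn-null and 0.43 in wild-type RNA (limma adjusted p = 0.0114), and its second probe by 0.23 on average (limma adjusted p = 0.0486). Fn1 rose by 0.30 in Nxn-null and 0.46 in wild-type RNA for the brightest probe (limma adjusted p = 0.0213), and Postn by 0.34 in Nxn-null and 0.23 in wild-type RNA (limma adjusted p = 0.0326). Tnc, at 0.17 in Nxn-null and 0.40 in wild-type RNA, did not pass (limma adjusted p = 0.0566), and neither did the dim Fn1 probe A_52_P299974.

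In 9 of the 14 probes every E11.5 channel lay above every E9.5 channel, against 21% of all probes. With 1 array left out the number of probes that rose was between 9 and 12. The Postn rise missed the threshold whichever array was left out, with adjusted p-values of 0.0775 to 0.0955. Without E11.5 replicate 1 the rise of the brightest Fn1 probe was 0.18 in place of 0.38 (limma adjusted p = 0.0851), and without E9.5 replicate 1 that of the second Fn1 probe was 0.22 in place of 0.39 (limma adjusted p = 0.176). Leaving out either E9.5 array or E11.5 replicate 2 ended the call of the second Fbn1 probe (limma adjusted p = 0.0944, 0.135 and 0.167), and without E11.5 replicate 2 the brighter one also missed it (limma adjusted p = 0.0504). With the Feature Extraction processed signals the rise was 0.12 for Postn (limma adjusted p = 0.325) and 0.45 for Sparc A_51_P431087 (limma adjusted p = 0.130), which also missed the threshold with trend and robust moderation (limma adjusted p = 0.0649). The same signals gave larger rises of 1.13 for Eln, 1.35 for Bgn, 0.66 for the second Fbn1 probe and 0.54 for Tnc, and 0.39 for the dim Fn1 probe, which then passed (limma adjusted p = 0.0462).

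Other matrix genes gave a background to these values, each gene by its brightest probe. Over all genes with a symbol, 23.5% rose and 22.1% fell between the stages. Of 16 genes of elastic fibre and microfibril assembly, 12 rose and 0 fell, with a median change of 0.81. Ltbp3, which tethers latent TGF-beta to microfibrils, rose by 1.90, and Loxl1, a lysyl oxidase that crosslinks elastin, by 1.59. Of 13 fibrillar, FACIT and type VI collagens, 12 rose and 1 fell, with a median of 0.85. The collagen VI chain Col6a3 rose by 1.99 and Col6a1 by 1.33, and Col5a3 fell by 0.25.

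Of 8 other small leucine-rich proteoglycans, 5 rose and 0 fell, with a median of 1.03. Ogn (mimecan) rose by 2.58 and Kera (keratocan) by 1.45. Among 18 matricellular and adhesive glycoproteins 11 rose and 0 fell, among them the cartilage matrix protein Matn4 (2.02) and Tgfbi (1.20). The 16 basement membrane genes had 6 that rose and 0 that fell, with a median of 0.12. Of 6 genes of large proteoglycans and hyaluronan, 2 rose and 3 fell, and Hapln1, a link protein of cartilage, fell by 1.55.

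Among the cell-surface receptors of the matrix, 7 of 21 rose and 3 fell, with Itga11, a collagen receptor, at 1.38. Of 15 matrix proteases and inhibitors 10 rose and 0 fell, and Bmp1, the proteinase that trims procollagens, rose by 1.06. Of 14 TGF-beta signalling genes (ligands, receptors, Smads and their corepressors) 6 rose and 1 fell. The ligand Tgfb3 rose by 1.12, and Smad2, an intracellular transducer, fell by 0.32. The 7 mesenchyme markers had 4 that rose and 1 that fell, with sums of 29820 to 30582 at E11.5 against 25844 to 27020 at E9.5 in Nxn-null RNA, and all 5 neuron markers rose. Their part in the rise of the matrix genes was not tested.

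**Figure D4:**
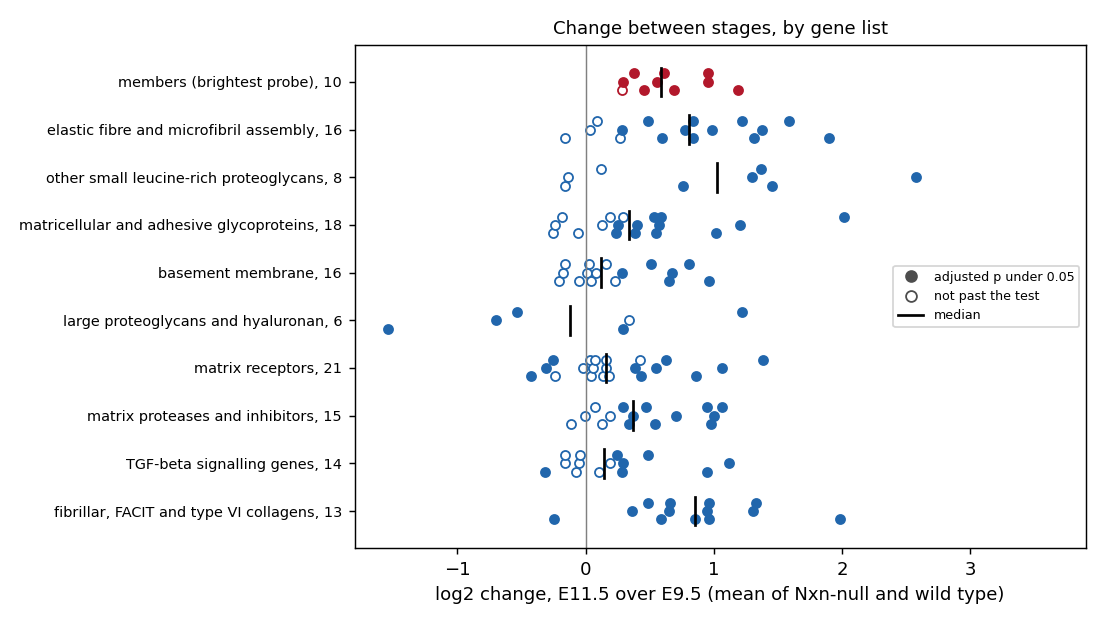
Log2 change of E11.5 over E9.5, averaged over Nxn-null and wild type, for the brightest probe of each gene, with the 10 matrix genes in red on top and other gene lists in blue. Filled points passed the limma test at an adjusted p under 0.05, open points did not, black bars are list medians, and numbers beside the names are genes tested. The collagen and elastic fibre lists lie mostly right of 0, at medians of 0.85 and 0.81, and the large proteoglycans lie on both sides.

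Between the genotypes, over all genes with a symbol, 9.09% passed the test as higher and 12.3% as lower at E9.5, while by E11.5 the shares were 3.24% and 4.27%. Of the 13 collagens, 1 passed as higher and 3 as lower at E9.5, while 0 and 5 did so later. Col1a1, the main chain of type I collagen, was at -0.47 (E9.5) and -0.42 (E11.5), and Col14a1, a collagen of fibril surfaces, was at -0.88 and -0.26 in the same order. The elastic fibre list had 3 higher and 0 lower at E9.5, with Mfap4 at 0.24 and Fbln5 at 0.20, and only Loxl2 was lower at E11.5 (-0.44).

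The matricellular list had 3 higher and 2 lower genes at E9.5, whereas 0 were higher and 3 lower later. Spp1 (osteopontin), an integrin ligand, was higher by 0.38 at E9.5, whereas its E11.5 ratio was -0.44. Thbs4, a thrombospondin, was lower at E9.5 (-0.94), and Vtn (vitronectin) was higher (0.42). Of the 21 receptors, 2 passed as higher and 3 as lower at E9.5, while 0 and 2 did so later. Itgb3, a subunit of an integrin that binds fibronectin and vitronectin, was lower at both stages, at -0.40 and -1.05. Of the 16 basement membrane genes, 5 were lower and 1 higher at E9.5, where Agrn (agrin) was at -0.29, and 0 were called at E11.5.

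At E9.5 the proteases and inhibitors had 3 higher and 3 lower genes of 15, the large proteoglycans 1 higher and 4 lower of 6, and the TGF-beta genes 1 higher and 2 lower of 14. At E11.5 the same lists held 1 lower gene (Timp2, an inhibitor of matrix proteases, at -0.39), 1 higher and 1 lower, and 0. Of the other small leucine-rich proteoglycans, only Chad was called at either stage, at -0.28 for the earlier and 0.77 for the later stage, with an SD of 0.63 and 1.18 between its arrays.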

How the data were processed

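Per the file headers, the authors' scanner output gives the linear intensity and local background of each spot in both channels and a log10 ratio of red over green. The headers name Agilent Feature Extraction 9.1.3.1, whereas version 9.5.3.1 stands in the submitters' processing notes. The deposited value table is on the log10 scale and equals that ratio as Nxn-null over wild type within 0.0001 for at least 99.995% of 40929 probes, with column medians of -0.0137, 0.0408, -0.0349 and 0.0210.

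Mean intensities were corrected by normexp (offset 50), normalised by loess with control spots at weight 0 and turned to log2. Spots of a probe were averaged, 293 probes with an outlier mark were left out, and 24993 were kept. Ratios at a stage were tested probe by probe with limma 3.58.1 (R 4.3.3) on 4 arrays with stage and dye terms (1 residual degree of freedom, prior 17.99). Ratios shared by the stages used the 2 stage averages, and E11.5 over E9.5 used single channels after Aquantile normalization. Benjamini-Hochberg adjustment ran over all 24993 probes. Every member probe is reported. In other lists, genes are named by the 2 highest and 2 lowest called values. Symbols came from RefSeq (GRCm38.p6), by accession for 22951 probes, by current symbol for 6659 and by older symbol for 3109, and 8455 kept the name in the files. Scripts were tested on simulated data, and figures were drawn with matplotlib 3.10.9. Alternatives were Feature Extraction ratios, offset 10, median centring, other probe filters, other moderation, no dye term, separate arrays, quantile normalization and leaving out each array. Members and lists were chosen with earlier results of these data known.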

Additional observations from a re-analysis of the deposited data

Results flagged for a closer look

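The genotype ratio of the Sparc probe A_51_P431087 differed between the stages, being higher at E11.5 than at E9.5 by 0.55 log2 units (limma adjusted p = 2.03e-04), and its ratio was above 0 on 4 of 4 arrays. The other Sparc probe showed a difference of -0.12 (limma adjusted p = 0.516). No other probe of the 10 genes met this test.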

How the results depend on the processing

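Every member probe called between the stages was higher at E11.5 than at E9.5 under every alternative run, with 12 called in the reported fit and 9 to 13 otherwise; the uncalled dim Fn1 probe was at -0.08 without E9.5 replicate 1. The genotype calls changed more. At E9.5, 5 probes were called, against 0 with Feature Extraction ratios, with median centring and without the dye term, 2 with an offset of 10, 2 with no filter on dim probes, and 0 with any array left out. At E11.5, 5 were called, against 0 with Feature Extraction ratios and without the dye term, 1 with median centring, 2 with an offset of 10, 2 with no filter, 3 with 1 probe per gene, and 0 to 1 with an array left out. The stage difference of the ratio, with 1 probe called, had 0 with Feature Extraction ratios, with median centring, with 1 probe per gene, without the dye term and with any array left out. The ratio shared by the stages had 0 in each. With 1 probe per gene only 10 member probes were tested, without Sparc A_51_P431087 and Fn1 A_52_P11817 among others. The 3 E11.5 calls of that run were Fn1, Dcn and Tnc, all called in the reported fit too. The stage-difference call was on the Sparc probe left out there. For the rise, that run called 9 of 10, and requiring both genotypes above background called 13 of 13. Fits with an array left out also lack the dye term, and otherwise the cause was not tested. Over all probes the calls at E9.5 numbered 5570, against 1538 with Feature Extraction ratios, 919 with median centring, 540 without the dye term and 339 to 567 with an array left out. At E11.5 they numbered 2119, against 48, 296, 50 and 17 to 216, with 1321 at an offset of 10, and for the stage difference 2924, against 302, 510, 173 and 106 to 292, with 1949 at an offset of 10. Between the stages, 10593 of all probes were called in either direction (4872 higher and 5721 lower at E11.5), against 6860 to 10361 in either direction with an array left out. The share of higher calls was 39.5% at E9.5, 37.3% at E11.5 and 60.5% for the stage difference, against 24.8%, 25% and 68.2% with Feature Extraction ratios and 22.4%, 53.4% and 79.2% with median centring. All arrays lay on 1 slide with 1 scan time, so a block for either was not run. Every ratio pairs the genotypes within an array, and the labels carry no replicate numbers to block on across arrays. Signal near background limits the 4 dim probes and the third Fn1 probe. Bgn, Eln and the second Fbn1 probe were well above background in every channel but little brighter. Their mean log2 signals were 7.96, 8.13 and 7.90, against 7.63 for the third Fn1 probe, and their rises were larger with Feature Extraction signals.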

Other observations

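Probes of cDNA clones that the files describe by a member's name but list under another gene name were looked at after the values were seen. The probe A_52_P448666, of a clone described as fibrillin 2, had log2 ratios of -0.36 and -0.31 at E9.5 (limma adjusted p = 5.51e-04) and of -0.09 and -0.16 at E11.5 (limma adjusted p = 0.294). The Fbn2 probe itself had a mean of -0.01 at E9.5. The probe A_52_P278035, described as tenascin C, had ratios of -0.08 and -0.13 at E9.5, then -0.04 and -0.02 at the later stage, and was not called. Probes described as periostin and fibrillin 1 were too dim to test.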
